A study of Mus musculus with 2 samples.

Results

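The cells described here came from subcutaneous MC38 tumors and were picked out of 2 single-cell RNA-seq libraries with a gate for inflammatory monocytes, by their own unique molecular identifier (UMI) counts, 1 UMI standing for 1 captured RNA molecule. Droplets under 500 genes, under 1000 UMIs or above 15% mitochondrial UMIs were left out. The members were chosen by the UMI counts of marker genes, and a cell was a member if Ly6c2, Chil3, Plac8 and Ly6i together gave at least 5 UMIs. It also had to carry at most 4 UMIs of the complement genes C1qa, C1qb and C1qc, no UMI of Cd3e, Cd3d or Cd3g, at most 1 UMI of Csf3r, Cxcr2 and Retnlg, no Itgae UMI and at most 1 UMI of Krt8 and Krt18. Of 25402 cells that passed the depth filters, 729 were members, 416 of 13542 from Lmo7+/+ and 313 of 11860 from Lmo7-/- tumors. They are called monocyte-gate cells below, and the values of the genes in the gate are a description of how they were chosen.

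The study asked how loss of Lmo7, a gene for a large LIM-domain protein, in the host alters the immune cells of a tumor. MC38, a mouse colon carcinoma line that was not itself deleted for Lmo7, had been injected under the skin of female wild-type (Lmo7+/+) mice and of mice with a germline Lmo7 deletion (Lmo7-/-), so that every host cell of the second group carried the deletion and no untreated or tumor-free group was part of the comparison. Live cells sorted from the dissociated tumors gave 1 droplet library per genotype, and the number of mice behind each library was not given in the sources used here. With 1 library a genotype there was no replicate, so no test between genotypes was possible. All intervals below are 95% intervals that cover counting error only. Those of CPM and of ratios rest on summed UMIs and leave out the variation between cells. They are too narrow for genes that vary much from cell to cell. A tumor, a mouse or a library that differed by chance cannot be told apart from the genotype.

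The deposited tables held 16208 droplets with 98582479 UMIs for the Lmo7+/+ library and 15163 droplets with 80648345 UMIs for the Lmo7-/- library. The cells kept had a median of 4535.5 and 4304.5 UMIs. The monocyte-gate cells were shallower, at 2996 and 2340 UMIs and 1450.5 and 1214 genes, with a median of 4.41% and 4.24% mitochondrial UMIs. The 2 libraries shared 279 droplet barcodes; 8 Lmo7+/+ and 6 Lmo7-/- members had a barcode that the other library also held, and 0 barcodes were members in both.

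Classical monocytes leave the bone marrow with high surface Ly6C and the chemokine receptor Ccr2, follow Ccl2 and Ccl7 into inflamed tissue or tumors, and there mature into macrophages or dendritic cells. As they mature they lose Ly6c2 and Chil3 and gain complement C1q, apolipoprotein E and scavenger receptors. In tumors the same Ly6C-high cells are often counted as monocytic myeloid-derived suppressor cells when they restrain T cells through nitric oxide, prostaglandins or other means. A second population, the nonclassical monocytes, patrols vessels, depends on Nr4a1 and carries Cx3cr1, Ace, Treml4 and Adgre4 in place of Ly6C.

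Of the 4 gate genes, Ly6c2 encodes a Ly6C antigen, Chil3 a secreted chitinase-like lectin, Plac8 a small cysteine-rich protein and Ly6i a further GPI-anchored Ly6 protein. On GRCm38, in the annotation of GENCODE M21, Ly6c2 lies at chr15:75108158-75111970 and Ly6i at chr15:74979534-74983430 in the Ly6 cluster, Chil3 at chr3:106147554-106167564, and Plac8 at chr5:100553725-100572245, all on the minus strand. The start regions of Ly6c2 and Plac8 are shown because these genes gave most of the gate UMIs. RefSeq promoters, each 250 bases before to 50 bases after a start on GRCm38.p6, are printed 5′ to 3′ on the gene's own strand, and the capitals mark GAGGAA on either strand (TTCCTC on the other), the core letters bound by PU.1, the myeloid master regulator encoded by Spi1. The Ly6c2 window is chr15:75111922-75112221 and the Plac8 window chr5:100572156-100572455.
Ly6c2: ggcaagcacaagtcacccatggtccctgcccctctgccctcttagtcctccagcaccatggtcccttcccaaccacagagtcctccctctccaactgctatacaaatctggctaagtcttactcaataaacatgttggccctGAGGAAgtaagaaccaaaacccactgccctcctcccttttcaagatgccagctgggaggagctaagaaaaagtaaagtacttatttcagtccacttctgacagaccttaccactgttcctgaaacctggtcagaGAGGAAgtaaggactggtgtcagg
Plac8: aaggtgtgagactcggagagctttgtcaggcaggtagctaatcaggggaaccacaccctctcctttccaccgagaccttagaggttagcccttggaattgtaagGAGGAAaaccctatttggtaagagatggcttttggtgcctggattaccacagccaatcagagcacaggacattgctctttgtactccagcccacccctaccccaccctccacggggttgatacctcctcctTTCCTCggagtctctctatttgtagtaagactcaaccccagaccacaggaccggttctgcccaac
Both windows held 2 matches, the first of them 108 bases before the start in Ly6c2 and 146 bases before it in Plac8. The Chil3 window and a second Plac8 window, chr5:100563047-100563346, held 0, and no Ly6i window was used here. Of all 32851 promoter windows listed, 28.3% held GAGGAA, so a match is a description and not evidence of a site.

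Plac8 carried most of the gate. It gave 56.6% of the gate UMIs in Lmo7+/+ and 59.8% in Lmo7-/- members, and 97.1% of the members had at least 1 Plac8 UMI in either library. Ly6c2 was seen in 66.1% and 64.9% of members, Ly6i in 34.4% and 28.1%, and Chil3 in 32.5% and 21.4%. A total of 81 Lmo7+/+ and 79 Lmo7-/- members reached the gate on Plac8 alone. Since Plac8 is also made by lymphoid and plasmacytoid cells, these were checked against markers of other lineages. Reads of near-identical neighbours may be split: of the 90-base windows of Ly6c2 transcripts, 7.27% also occurred in Ly6c1, and 4.65% of those of Chil3 occurred in Chil4. Within the last 500 bases of the transcripts the shares were 19.3% and 8.76%.

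Many members carried RNA of a second lineage. Counting a lineage as present at 2 or more UMIs of its list, 174 of 416 Lmo7+/+ members (41.8%) and 132 of 313 Lmo7-/- members (42.2%) held markers of at least 1 of 8 other lineages, and because they were deep they supplied 65.7% and 70.2% of all member UMIs. Of the marker UMIs themselves the 6 fibroblast genes gave the most, 18924 and 21579. There were 72 and 61 members with fibroblast markers, 17.3% and 19.5% of the members, with medians of 9710 and 10581 UMIs and 43.9% and 51.1% of the UMIs. All 6 fibroblast genes were present in both libraries at a summed 9530 and 15369 CPM (UMIs per gene after scaling the class to a total of 1000000), and the most abundant, Col1a1, gave 8543 and 9196 UMIs. Markers of another lineage were not particular to this gate. None were held by 242 of 416 Lmo7+/+ and 181 of 313 Lmo7-/- members. Among cells with at least 5 C1q UMIs the same was true of 2102 of 4127 and 2606 of 4637 below the gate sum. It was true of 197 of 349 and 159 of 259 that reached the gate sum.

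The plasmacytoid dendritic cell list was met by the most members, 105 and 86, or 25.2% and 27.5%, who held 47.6% and 54.3% of the UMIs. It was met mostly through the transcription factor Tcf4 with 519 and 329 UMIs, a gene that other cells also use. T cell markers were present in 37 and 49 members, led by Thy1, tumor markers in 45 and 19, led by Cdh1, and B or plasma cell markers in 24 and 17, led by the light chain Igkc with 9839 and 8631 UMIs. Endothelial markers were met in 20 and 7 members and NK cell markers in 10 and 12. The mast cell list was met by 1 member of the Lmo7+/+ library, and all 6 of its genes were at 0 in the Lmo7-/- members.

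**Figure D1:**
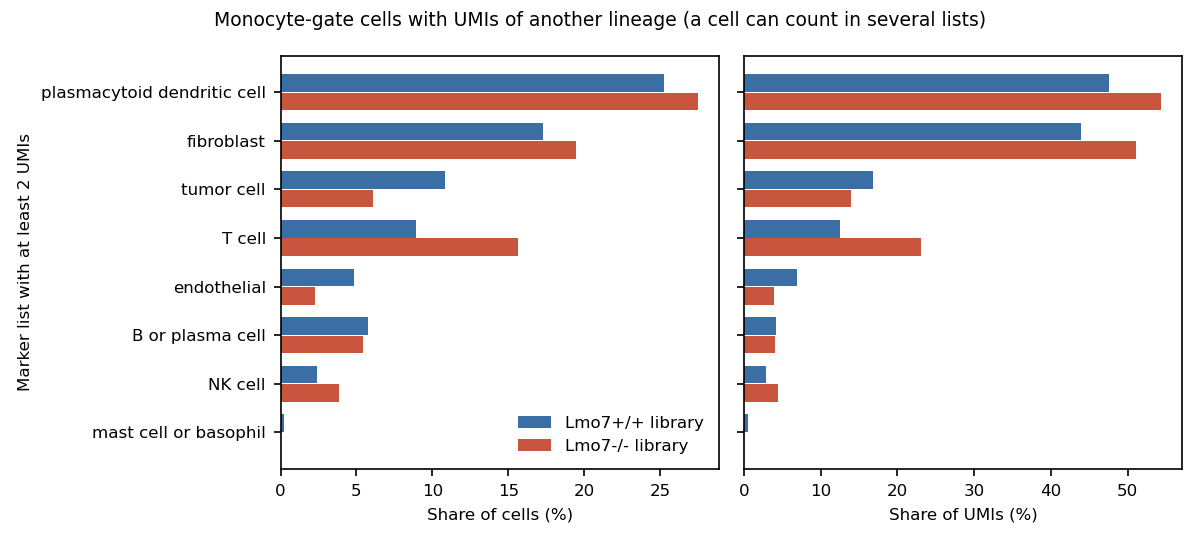
Share of the monocyte-gate cells (left, %) and of their UMIs (right, %) that had at least 2 UMIs of each of 8 marker lists, by library; a cell can count in several lists. Fibroblast-marker cells were 17.3% and 19.5% of the cells but 43.9% and 51.1% of the UMIs.

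The members without such markers had the profile of monocytes, and the fibroblast-marker members did so less. Ccr2, the one listed marker that the gate did not use, was seen in 69.4% (63.2 to 75.2) of the 242 Lmo7+/+ members without another lineage and in 65.2% (57.8 to 72.1) of the 181 such Lmo7-/- members, against 26.4% and 19.7% of the fibroblast-marker members. Tyrobp, the myeloid signalling adaptor, was seen in 96.3% and 95.6% of the former and in 43.1% and 31.1% of the latter, although the latter had more UMIs per cell. The pan-leukocyte gene Ptprc was seen in 80.2% and 75.7% against 33.3% and 19.7%. The 102 Lmo7+/+ and 71 Lmo7-/- members with markers of another lineage but not of fibroblasts lay closer to the first set for Ptprc, in 81.4% and 76.1%, and Tyrobp, in 89.2% and 76.1%. For Ccr2, in 42.2% and 39.4%, they lay between, nearer the fibroblast-marker members. The lysozyme gene Lyz2 was seen in 32.4% and 43.7% of them, against 72.7% and 90.1% of the first set and 26.4% and 36.1% of the fibroblast-marker members. By Ccr2, Tyrobp and Lyz2 the label of monocytes fitted the 423 members without markers of another lineage best, and the fibroblast-marker members least. The lists of other lineages did not include conventional dendritic cells or neutrophils, which only the gate held out. Dendritic cells without an Itgae UMI could therefore remain among the 423. Flt3, a gene of dendritic cells, was seen in 2.48% and 2.76% of them. Values are given below for those 423 cells first, called monocytes without other-lineage markers, with the value over all 729 members beside them where the sign or the side of 2 times differed.

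Lmo7 itself could not be used to check the genotype labels in these cells. All members held 13 Lmo7 UMIs in each library (6.55 and 9.26 CPM), of which 12 and 9 came from the fibroblast-marker members. Among the monocytes without other-lineage markers there were 0 Lmo7 UMIs in 242 and in 181 cells, which, at a floor of 3 cells, allows up to 1.24% and 1.66% of cells with a UMI. Macrophages were at 0.886 and 1.67 CPM. The genotype therefore rests on the labels, and "Lmo7-/- library" means the library labelled so.

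The gate kept 3.07% (2.79 to 3.38) of the Lmo7+/+ cells and 2.64% (2.36 to 2.94) of the Lmo7-/- cells, a difference of -0.433 percentage points (-0.842 to -0.0210). The monocytes without other-lineage markers were 1.79% and 1.53%, and their difference of -0.261 (-0.575 to 0.056) included 0. With a stricter depth filter on all cells it was -1.13 (-1.61 to -0.653). The cells were also set against 2 further gates of the same lineage. Transitional cells passed the same gate but held at least 5 C1q UMIs, and macrophages held at least 5 C1q UMIs with fewer than 5 gate UMIs. Of these 3 classes together, monocyte-gate cells made up 8.50% (7.74 to 9.32) of 4892 cells and 6.01% (5.38 to 6.69) of 5209 cells. The difference was -2.49 percentage points (-3.51 to -1.48), and -3.38 (-4.83 to -1.96) when cells with other-lineage markers were left out of all 3 classes. The members' median depths differed, and the gates were also applied after thinning to 1500 UMIs, with shallower cells left out. They then kept 2.48% of 11648 and 1.73% of 10252 cells, a difference of -0.755 percentage points (-1.13 to -0.374). Leaving out cells under 1500 UMIs removed 38 of 416 Lmo7+/+ and 56 of 313 Lmo7-/- members by itself, and the part of depth in the difference cannot be told apart.

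Members at the edge of the gate were less clearly monocytes than those in its middle. In cells with at most 4 C1q UMIs, Ccr2 was at 112 and 81.5 CPM in those with a gate sum of 4, just outside, at 122 and 82.0 CPM in those with a sum of 5, just inside, and at 252 and 555 CPM in those with a sum of 10. At the C1q edge Ccr2 was high on both sides. It was at 234 and 399 CPM in cells with 4 C1q UMIs, just inside, and at 362 and 520 CPM in cells with 5, which were transitional, each over 8 to 12 cells.

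Compared with macrophages, the monocytes without other-lineage markers were higher for genes of recruited monocytes and lower for genes of mature macrophages. The gate and C1q chose both classes from these same counts, so the differences describe the classes and are not tested. Of 10429 genes measured, 344 (3.3%) were at least 2 times higher in monocytes in both libraries and 535 (5.13%) at least 2 times lower. Over all members these were 1034 (8.43%) and 380 (3.1%) of 12263 genes. Of the 30 monocyte identity genes, 20 were higher and 0 lower, with median log2 ratios of 1.62 and 1.95, and over all members 16 were higher and 1 lower. Ccr2 stood at 668 CPM (608 to 732) and 750 CPM (670 to 838) in monocytes against 83.0 and 80.5 CPM in macrophages, log2 ratios of 3.01 and 3.22.

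Ifitm6, an interferon-induced membrane gene of monocytes, had the highest ratios by the naming rule, 4.87 and 4.92 on the log2 scale. It was followed by S100a4, a calcium-binding protein of migrating cells, at 4.12 and 4.28. F10, coagulation factor X, was at 3.80 and 3.81 and the proteoglycan Vcan at 3.77 and 4.36. The oxidized-LDL receptor Olr1, glutathione reductase Gsr, the adhesion receptor Adgre5 and Inhba, the activin A subunit, were also among the 10 highest. Slfn4 and Plet1 were the others. Plet1 also ranked first among the genes lower in monocytes than in cells gated as dendritic by Itgae. Haptoglobin, encoded by Hp, was at 119 and 110 CPM in monocytes and had 3 and 2 UMIs in the macrophages without other-lineage markers of each library.

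Genes of macrophage maturation were lower. Of 24 macrophage differentiation genes 18 were at least 2 times lower in both libraries and 0 higher, with median log2 ratios of -2.12 and -2.01, and over all members 17 were lower. Apoe was at 363 and 444 CPM in monocytes against 3710 and 4644 CPM in macrophages, log2 ratios of -3.35 and -3.39. The mannose receptor Mrc1 had 4 UMIs in the monocytes of either library, at log2 ratios of -4.86 and -4.10. Vcam1, which binds the integrin of lymphocytes, was at -4.29 and -4.25. Spp1, osteopontin, was at -0.52 in the Lmo7+/+ and 1.09 in the Lmo7-/- library, and over all members the former was 0.55.

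Proliferation genes were lower in monocytes too, 15 of 23 at least 2 times in both libraries and 0 higher, but over all members only 1 of 23 was lower. Mki67, a marker of cycling cells, was at 35.2 and 19.1 CPM against 137 and 94.1 CPM in macrophages. Of 16 chemokine genes 8 were lower and 0 higher, among them Ccl8, at 3 UMIs in the monocytes of each library, and Ccl12 at log2 ratios of -3.08 and -3.64. Over all members 5 were lower and 1 higher. Of 27 type I interferon response genes 8 were higher and 0 lower, against 1 of 28 higher over all members. The 8 included Slfn4 at 3.66 and 4.37, the viral RNA sensor gene Oas3 at 1.63 and 1.78, and Ifi209 at 1.41 and 1.87. Over all members Oas3 was at 0.83 and 0.55 and Ifi209 at 0.55 and 0.57. Il1b was abundant in both classes, at 5445 and 6736 CPM in monocytes and 3277 and 3715 CPM in macrophages, but over all members its ratio to macrophages was -0.19 in Lmo7-/- tumors.

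**Figure D2:**
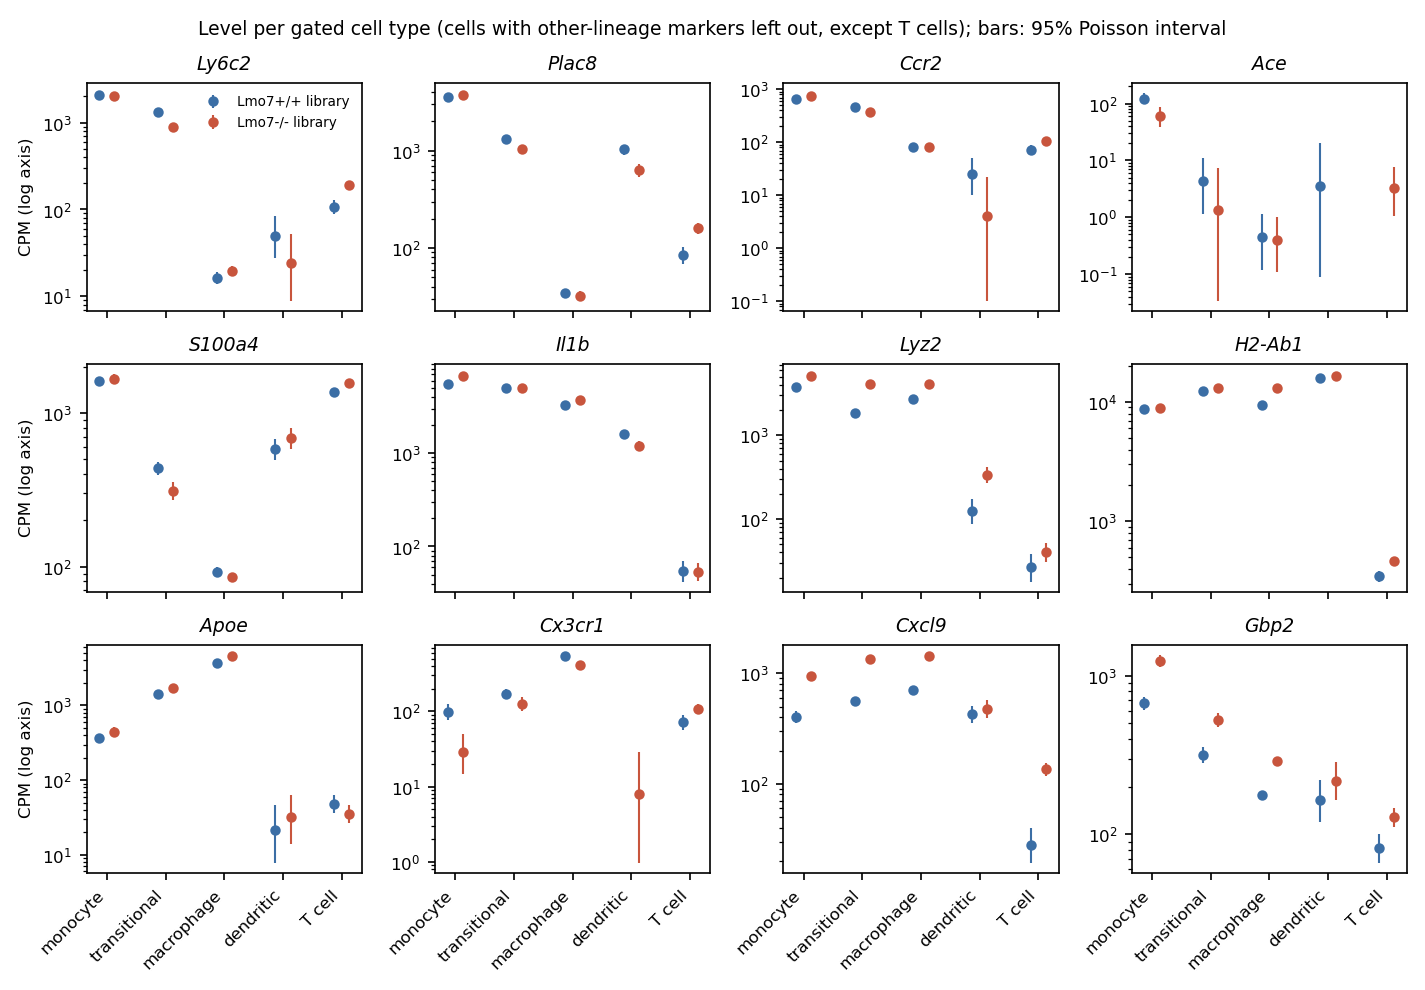
Level of 12 genes in CPM (log axis) in gated monocytes, transitional cells, macrophages, dendritic cells and T cells, 1 point per library with its 95% Poisson interval; cells with other-lineage markers were left out except in T cells, and a library at 0 has no point. Ccr2 stepped down from 668 and 750 CPM in monocytes to 83.0 and 80.5 CPM in macrophages, while Apoe stepped up.

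Transitional cells lay between these levels. Ccr2 was at 465 and 369 CPM in them, Ly6c2 at 1316 and 885 CPM, and Apoe at 1402 and 1721 CPM. Over all members the Ccr2 ratio to transitional cells was -0.21 and 0.11, against 0.52 and 1.02 without other-lineage markers. Of 6092 genes, 76 (1.25%) were at least 2 times higher in monocytes than in transitional cells in both libraries and 91 (1.49%) lower. Over all members these were 940 and 169 of 9419 genes, so the counts and their balance depended on the cells used. Without other-lineage markers the highest were Ifitm6, Adgre5 and S100a4, with S100a4 at 1619 and 1658 CPM against 436 and 311 CPM. Ace, the angiotensin-converting enzyme of nonclassical monocytes, was at 122 and 59.7 CPM in monocytes against 4.27 and 1.35 CPM in transitional cells. Against gated dendritic cells, 465 of 4499 genes (10.3%) were higher in monocytes and 166 (3.69%) lower, and over all members 563 and 152 of 8957 genes.

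To set shares of cells side by side at 1 depth, cells were thinned to 1500 UMIs, which left out 30 and 42 of the monocytes without other-lineage markers. Ccr2 was then seen in 60.4% (53.5 to 67.0) of 212 and 57.6% (48.9 to 65.9) of 139 monocytes, against 69.4% and 65.2% before thinning. In transitional cells the shares were 45.7% and 45.2%, in macrophages 9.17% and 9.59%, and in T cells, some of which make Ccr2 themselves, 7.87% and 7.59%. Over all members the share was 41.5% and 40.1%. The Ccr2 intervals of the 2 libraries, which cover counting error only, overlapped in each of these classes.

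Most granulocyte genes had few UMIs. The 9 neutrophil genes listed, of which 5 reached the minimum of 20 UMIs, summed to 1282 and 963 CPM, and most of this was Il1r2, the decoy receptor of interleukin 1, with 766 and 369 UMIs. Csf3r, the receptor for granulocyte colony-stimulating factor, which the gate held to at most 1 UMI a cell, had 45 and 25 UMIs. S100a8, the calgranulin of neutrophils and early monocytes, had 32 and 14 UMIs in the monocytes without other-lineage markers, of which 90.6% and 71.4% came from 1 cell. No UMI of the neutrophil gene Retnlg was found, and the gate allowed at most 1.

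**Figure D3:**
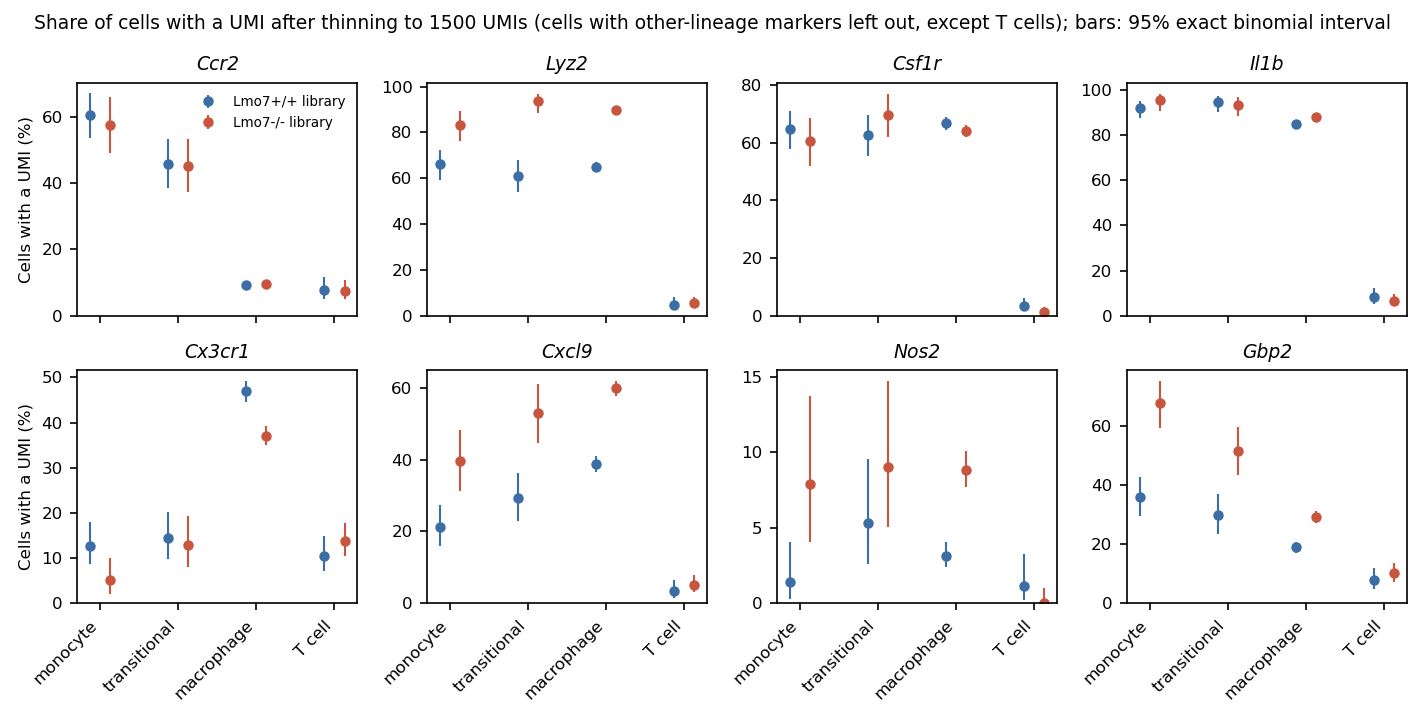
Share of cells with at least 1 UMI of 8 genes (%) after thinning to 1500 UMIs per cell, in gated monocytes, transitional cells, macrophages and T cells of each library, with 95% exact binomial intervals; cells with other-lineage markers were left out except in T cells. Cxcl9 and Nos2 were seen in more Lmo7-/- than Lmo7+/+ monocytes, and Ccr2 in a like share of both.

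Between the genotypes, the monocytes without other-lineage markers of the Lmo7-/- library had positive median log2 ratios for interferon gamma response genes and chemokines, of which 3 of 23 and 4 of 14 were past 2 times, and a negative one for nonclassical monocyte genes, of which 6 of 12 were at least 2 times lower. Of 6044 genes with at least 20 UMIs, 132 (2.18%) were at least 2 times higher and 261 (4.32%) at least 2 times lower in the Lmo7-/- library, and the median log2 ratio was -0.05. Over all members it was 276 (2.74%) higher and 301 (2.99%) lower of 10071 genes. Calls shared by both sets of cells were 15 higher and 54 lower genes. These were 11.4% and 20.7% of the calls of the monocytes without other-lineage markers. Of the calls over all members they were 5.43% and 17.9%, but most of those calls could not be shared. Of the 276 higher genes 257, and of the 301 lower genes 213, had too few UMIs to be measured in the monocytes without other-lineage markers.

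The interferon gamma list had the highest median of the 16 gene lists drawn, 0.65 over 23 measured genes (0.40 over all members), of which 20 were above 0, 3 were at least 2 times higher and 0 lower. With only the fibroblast-marker members left out the median was 0.20, below the 0.51 of chemokines and the 0.38 of hypoxia and glycolysis genes, so the rank depended on which cells were left out. Gbp2, a guanylate-binding GTPase that attacks pathogen vacuoles, went from 456 UMIs (669 CPM) in the Lmo7+/+ to 517 UMIs (1235 CPM) in the Lmo7-/- monocytes, a log2 ratio of 0.88 (0.70 to 1.07) and 0.85 over all members. After thinning it was seen in 35.8% (29.4 to 42.7) and 67.6% (59.2 to 75.3) of monocytes, where the intervals take cells and not mice as the unit. Cxcl9, the chemokine that draws Cxcr3 T cells, went from 275 to 392 UMIs, 404 to 937 CPM, a ratio of 1.21 (0.99 to 1.44). Its share of cells was 21.2% (15.9 to 27.4) and 39.6% (31.4 to 48.2).

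Cxcl9 over all members was 0.93, but where it sat differed. The fibroblast-marker members held 272 of 1048 Cxcl9 UMIs (26.0%) in Lmo7+/+ and 947 of 1412 (67.1%) in Lmo7-/- tumors, while members with other markers held 501 and 73. With the fibroblast-marker members left out, the log2 ratio was -0.04. In T cells, which should lack Cxcl9, the level was 28.2 and 135 CPM and the thinned share 3.37% and 5.15%, below that of the monocytes in both libraries.

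Other genes of the list had similar directions. Irf1, the first transcription factor switched on by the receptor, was at 424 and 636 CPM, a ratio of 0.58 (0.34 to 0.83). Socs1, the feedback inhibitor, was at 1.09 (0.31 to 1.88) on 26 and 34 UMIs, and at 0.99 over all members, and the immunity-related GTPase Iigp1 at 1.08 (0.43 to 1.74) on 37 and 48, though Iigp1 was at 0.11 when only the fibroblast-marker members were left out. Cd274, encoding PD-L1, was at 0.65 (0.35 to 0.96). The receptor chain Ifngr1 went the other way, at -0.61 (-0.99 to -0.23) with 203 and 82 UMIs. In macrophages without other-lineage markers the same list had a median of 0.54 over 25 genes, with Gbp2 at 0.71 and Cxcl9 at 1.02, against a background there of 0.999% of genes higher and 1.31% lower.

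The start regions of Irf1 and Gbp2 are shown as examples of 2 motifs of interferon genes, and each was chosen for the motif it holds. The capitals mark TTCNNNGAA, the letters of a gamma-activated site, in Irf1, and GAAANNGAAA, the letters of an interferon-stimulated response element, on either strand in Gbp2, where it reads TTTCNNTTTC. The windows are chr11:53769764-53770063 for Irf1 and chr3:142620413-142620712 for Gbp2 on GRCm38.p6, both on the plus strand, from RefSeq.
Irf1: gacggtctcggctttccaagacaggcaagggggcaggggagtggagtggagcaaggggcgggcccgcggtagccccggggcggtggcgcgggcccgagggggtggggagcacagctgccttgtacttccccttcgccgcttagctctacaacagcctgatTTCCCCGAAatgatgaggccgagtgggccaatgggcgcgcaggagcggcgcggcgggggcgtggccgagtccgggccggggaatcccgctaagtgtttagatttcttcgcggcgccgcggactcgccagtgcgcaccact
Gbp2: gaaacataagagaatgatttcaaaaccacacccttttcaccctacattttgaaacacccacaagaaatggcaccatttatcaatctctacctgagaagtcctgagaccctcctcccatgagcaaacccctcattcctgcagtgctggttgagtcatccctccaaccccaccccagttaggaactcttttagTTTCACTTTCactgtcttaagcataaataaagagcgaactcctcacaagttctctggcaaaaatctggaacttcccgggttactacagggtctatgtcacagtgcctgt
The first match lay 90 bases before the start in Irf1 and 59 bases before it in Gbp2. The window of Cxcl9 held 0 matches to either motif, those of Gbp2 and Socs1 held 0 to TTCNNNGAA, and so did a second window of Irf1. Of 19 interferon gamma list genes with a window, 10 (52.6%) held GAAANNGAAA, against 3.99% of all 27025 genes, and 7 (36.8%) held TTCNNNGAA, against 9.55%. Of 23 type I list genes 13 held GAAANNGAAA. Over all 32851 windows the shares were 3.44% for GAAANNGAAA and 8.30% for TTCNNNGAA.

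The type I interferon list stayed near the median of all genes. Its median was 0.09 over 26 genes, with 0 at least 2 times higher and 0 lower, and -0.047 over all members, with 1 lower. Irf7, the master regulator of type I interferon, was at 0.11 (-0.20 over all members), Isg15, the ubiquitin-like modifier, at 0.33 (-0.049 over all members), and Ifit2, an RNA-binding effector, at -0.70.

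Chemokines had a median of 0.55 over 14 genes (0.39 over all members), with 4 at least 2 times higher and 0 lower. Over all members gated without Plac8 the median was -0.017, and with gates applied after thinning it was 0.76. Besides Cxcl9 these were Ccl5, Ccl24 and Cxcl2. Cxcl2, a neutrophil attractant, went from 220 to 276 UMIs, a ratio of 1.03 (0.77 to 1.29), and over all members it was 0.39. Ccl5, which attracts T cells and monocytes, went from 30 to 86 UMIs, a ratio of 2.22 (1.61 to 2.87) and 1.37 over all members, but 43.3% of the UMIs of the Lmo7+/+ library came from 1 cell. Over all members gated at a sum of at least 3, the Ccl5 ratio was 0.064. Ccl24 went from 2 to 26 UMIs, of which 65.4% came from 1 cell. Over all members 3 chemokines were higher and 1 lower. The monocyte attractant Ccl2 was at -0.25 (-1.22 to 0.66), and at 0.096 over all members, and Ccl4 at -0.58 (-1.21 to 0.01).

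Among the genes by which monocytic suppressor cells act, Nos2 was far above the list's median. Nos2, inducible nitric oxide synthase, went from 12 UMIs in 7 cells to 51 UMIs in 18 cells, 17.6 (9.10 to 30.8) to 122 CPM (90.7 to 160), a ratio of 2.79 (1.86 to 3.83). After thinning Nos2 was seen in 1.42% (0.293 to 4.08) and 7.91% (4.02 to 13.7) of monocytes. In T cells it was seen in 3 of 267 and in 0 of 369, where a floor of 3 cells would be 0.813%.

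Over all members the Nos2 ratio was 1.37. The fibroblast-marker members held 41 of 64 Nos2 UMIs in the Lmo7+/+ and 66 of 117 in the Lmo7-/- library. In macrophages without other-lineage markers it was at 1.80. The list as a whole did not follow it: its median was 0.02 over 14 genes, with 2 higher and 0 lower. Ptgs2, the cyclooxygenase of prostaglandin synthesis, was at 0.62 (0.41 to 0.82), Il4ra at -0.19 and the NADPH oxidase subunit Cybb at -0.0032.

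Of 10 inflammatory cytokine genes measured, 2 were at least 2 times higher and 0 lower, with a median of 0.26, but 0 of 11 were past 2 times over all members. Il1rn, the interleukin 1 receptor antagonist, went from 265 to 387 UMIs, 389 to 925 CPM, a ratio of 1.25 (1.02 to 1.48), against 0.65 over all members and 0.24 in macrophages. Tnf went from 76 to 94 UMIs, a ratio of 1.01 (0.56 to 1.47), against 0.49 over all members and 0.09 in macrophages. Il1b itself was at 0.31 (0.24 to 0.38), and at -0.09 over all members.

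The nonclassical monocyte genes had the lowest median, -0.99 over 12 genes (-0.77 over all members), with 6 at least 2 times lower and 1 higher. Over all members gated without Plac8 the median was -0.17. Cx3cr1, the fractalkine receptor, went from 67 UMIs (98.4 CPM) to 12 UMIs (28.7 CPM), a ratio of -1.78 (-2.80 to -0.88) and -2.31 over all members. Macrophages, which make more of it, were at 540 and 419 CPM, and T cells at 71.4 and 107 CPM. The thinned share of monocytes with a Cx3cr1 UMI, 12.7% and 5.04%, was near the 10.5% and 13.8% of T cells, some of which make Cx3cr1 themselves. How much of the monocyte value was free RNA was not tested.

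Genes that macrophages and T cells hardly make followed the same direction. Ace went from 83 UMIs in 35 cells to 25 UMIs in 14 cells, 122 (97.0 to 151) to 59.7 CPM (38.7 to 88.2), a ratio of -1.03 (-1.74 to -0.37) and -0.84 over all members, with macrophages at 0.443 and 0.394 CPM. Adgre4, an EGF-like adhesion receptor, went from 28 to 5 UMIs (41.1 to 11.9 CPM), with macrophages at 0.554 and 0.689 CPM and T cells at 0. Treml4, a receptor for dying cells, went from 29 to 6 UMIs and Ear2, an eosinophil-type ribonuclease, from 31 to 8. Pou2f2 was at -0.95 (-1.51 to -0.42) on 123 and 39 UMIs. Nr4a1, the factor this subset depends on, was at -0.20 (-0.40 to 0.01).

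The ratios of 2 genes of the list were above 0. Fcgr4, the activating IgG receptor, went from 171 to 175 UMIs, 251 to 418 CPM, a ratio of 0.74 (0.42 to 1.05), and was at 1.11 in macrophages. Cd36, a scavenger receptor for lipids, went from 24 to 52 UMIs, a ratio of 1.82 (1.09 to 2.58), and was at 0.83 in macrophages. In macrophages the nonclassical list had a median of 0.15. Of 8 nonclassical genes counted per cell, at least 1 was seen in 44.3% (37.5 to 51.3) of 212 Lmo7+/+ monocytes. In the Lmo7-/- library it was 23.0% (16.3 to 30.9) of 139. Macrophages were at 59.6% and 53.6%. Ly6c2 was at 2109 and 2016 CPM in the monocytes with such a gene and at 1990 and 1971 CPM in those without. Whether the lower nonclassical genes reflect fewer such cells in the gate or less RNA per cell was not tested.

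**Figure D4:**
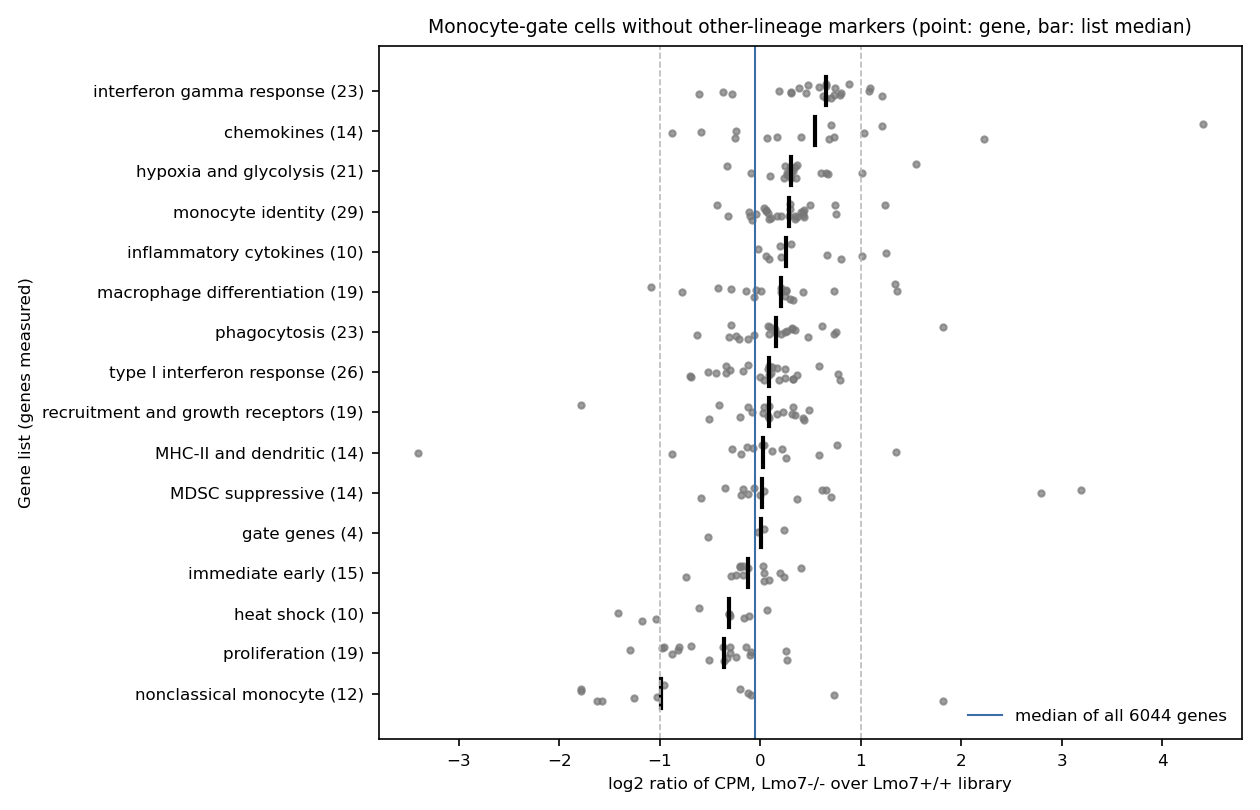
Log2 ratio of CPM, Lmo7-/- over Lmo7+/+ library, for each measured gene (points) of 16 lists in monocytes without other-lineage markers, with the list median (bars) and the number of genes measured in parentheses; the line is the median of all 6044 genes, -0.05, and dashes mark ratios of 1 and -1. Interferon gamma genes lay highest, with a median of 0.65, and nonclassical genes lowest, at -0.99.

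Over 29 monocyte identity genes the median was 0.28 (0.0054 over all members), with 1 at least 2 times higher and 0 lower, beside 2.18% and 4.32% of all genes. Ccr2 was at 0.17 (-0.04 to 0.38) and at -0.023 over all members. Csf1r, the receptor for macrophage colony-stimulating factor, was at -0.08 (-0.29 to 0.12), and S100a4 at 0.034 (-0.081 over all members). Lyz2, lysozyme, was at 3802 and 5123 CPM, a ratio of 0.43 (0.35 to 0.51), and at 0.58 in macrophages. Thbs1, the matrix glycoprotein thrombospondin 1, was at 1439 and 2430 CPM, a ratio of 0.76 (0.63 to 0.88). The C-type lectin Clec4d, the 1 gene past 2 times, was at 1.24 (0.57 to 1.93) on 33 and 48 UMIs, and at 0.83 over all members, where 0 of 30 were past 2 times.

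Among the remaining lists hypoxia and glycolysis had the highest median, 0.31 over 21 genes (0.13 over all members), with 2 higher and 19 above 0. The medians of 4 further lists turned with the cells used. Phagocytosis was at 0.15 over 23 genes with 1 higher, but at -0.063 over all members, and macrophage differentiation at 0.21 over 19 with 2 higher and 1 lower, but at -0.13 over all members. Recruitment and growth receptors had 0.09 over 19 with 1 lower, which was Cx3cr1, but -0.19 with 2 lower over all members. MHC-II and dendritic genes had 0.03 over 14 with 1 higher and 1 lower, but -0.37 with 1 higher and 2 lower over all members. Within the phagocytosis list Lrp1, the receptor for calreticulin that the study followed in macrophages, had 143 and 71 UMIs, 210 and 170 CPM, a ratio of -0.31, but of 0.044 over all members. Sirpa, the receptor for the signal CD47, was at -0.12 and over all members at -0.32. The lower dendritic gene was Ccr7, which guides cells to lymph nodes, with 69 UMIs in 10 cells and 4 UMIs in 3 cells, 40.6% of the former from 1 cell. The list of immature and granule genes, which are made by precursors in the marrow and by neutrophils, had only 3 measured genes, with a median of -0.84 and 1 lower (-0.90 over all members).

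Proliferation genes had a median of -0.36 over 19 genes with 1 lower, but 0.15 over all members. Immediate early genes had -0.12 over 15 genes and none past 2 times. Heat shock genes had -0.31 over 10 genes with 3 lower. Hspa1b and Hspa1a, the inducible Hsp70 chaperones, were at -1.42 and -1.17 and sat in 23 and 21 cells of the Lmo7+/+ and 8 and 10 cells of the Lmo7-/- library, with 54.5% and 43.1% of the latter UMIs in 1 cell.

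By the naming rule, which asked for at least 100 UMIs, the 10 highest genes of the Lmo7-/- monocytes without other-lineage markers were Ccl5, Inhba, AA467197, Mgl2, Ifitm1, Il1rn, Cxcl9, Mt2, Plaat3 and Acod1. Inhba went from 59 to 112 UMIs, 86.6 to 268 CPM, a ratio of 1.63 (1.16 to 2.11), against 1.06 over all members and 1.04 in macrophages. Ifitm1, an antiviral membrane protein, went from 222 to 325 UMIs, a ratio of 1.25 (1.00 to 1.51), but was at 0.19 over all members. Acod1, which makes itaconate, was at 1.04, and at 0.71 over all members. AA467197 and Plaat3 were also under 2 times over all members, at 0.89 and 0.53. Of the Mgl2 UMIs of the Lmo7-/- library 41.0% came from 1 cell.

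The 10 lowest were Gm47283, F11r, Hspa1b, Ap1s2, Pilra, Hspa1a, Nsun2, Eif3l, Eif3m and Snhg1. F11r, the junctional adhesion molecule A, went from 163 UMIs in 104 cells to 36 UMIs in 27 cells, 239 to 86.0 CPM, a ratio of -1.48 (-2.04 to -0.95), against -1.56 over all members and 0.02 in macrophages. Pilra, an inhibitory receptor of myeloid cells, went from 207 to 56 UMIs, a ratio of -1.18 (-1.64 to -0.75), against -1.29 over all members and -0.15 in macrophages. Ap1s2, an adaptor subunit of vesicle traffic, was at -1.35 and at -0.38 in macrophages. The translation factors Eif3l and Eif3m were at -1.09 and -1.08 but at -0.16 and -0.25 over all members, and Gm47283, Nsun2 and Snhg1 were at -0.25, -0.088 and -0.011 over all members. Of the Snhg1 UMIs of the Lmo7+/+ library 58.2% came from 1 cell.

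**Figure D5:**
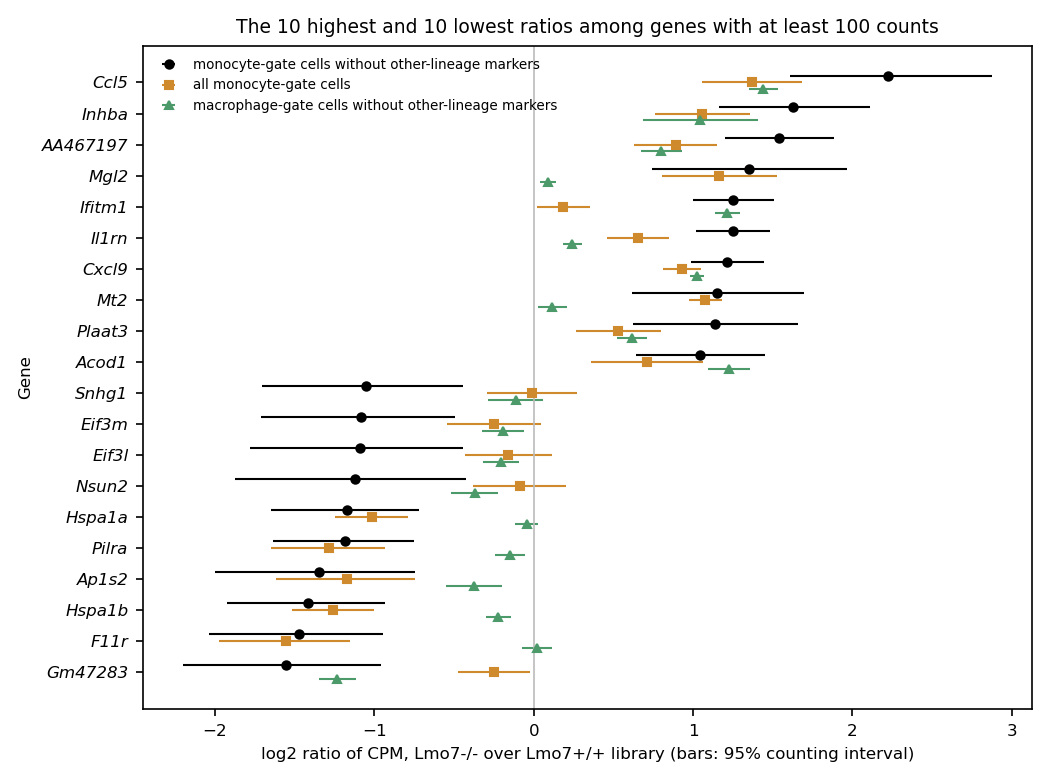
Log2 ratio of CPM, Lmo7-/- over Lmo7+/+ library, with 95% counting intervals, for the 10 highest and 10 lowest genes in monocytes without other-lineage markers (circles), in all monocyte-gate cells (squares) and in macrophages without other-lineage markers (triangles). F11r and Pilra were lower in both monocyte sets, at -1.48 and -1.18 in the circles, and near 0 in macrophages.

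Genes of other lineages were among the highest and lowest over all members. The 10 highest included the immunoglobulin gene Ighg2b, the pericyte gene Rgs5, the granzyme Gzmd and the autotaxin gene Enpp2, and the 10 lowest the immunoglobulin genes Igha and Ighg1, the mast cell proteases Mcpt1 and Mcpt2 and the endothelial gene Plvap. Cx3cr1 was among the lowest in these cells too, and Cd36 among the highest. The fibroblast list had a median of 0.72 over its 6 genes and the endothelial list -2.17 over 5. The mast cell list had only 3 measured genes, all with UMIs in the Lmo7+/+ library alone.

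Stress, antigen presentation and lysozyme genes were among those that varied most between single monocytes. After thinning to 1500 UMIs, the Fano factor is the variance of UMIs over their mean, and its median over all genes above a minimum mean was 1.09 in the monocytes without other-lineage markers of either library. In the 212 Lmo7+/+ and 139 Lmo7-/- cells it was 15.4 and 12.5 for Hspa1b, 11.3 and 8.74 for Lyz2 and 8.57 and 8.39 for H2-Aa. Some genes had very different values in the 2 libraries, with Hmox1, heme oxygenase 1, at 22.2 and 4.69 and Hspa1a at 18.7 and 7.97. Lyz2 was seen in 66.0% (59.2 to 72.4) of Lmo7+/+ and 83.5% (76.2 to 89.2) of Lmo7-/- monocytes, whereas T cells were at 26.4 and 40.0 CPM of Lyz2 against 3802 and 5123 CPM in monocytes. Over all members the immunoglobulin genes Igkc and Ighg2c had the highest Fano factors in both libraries, and the collagens Col1a1 and Col1a2 were at 44.2 and 36.2 in Lmo7+/+ and 51.2 and 39.3 in Lmo7-/- cells.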

How the data were processed

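The authors deposited 1 gene-by-droplet matrix of whole-number UMI counts per library, not normalized. The submitters' processing notes name Cell Ranger 2.1.1 and mm10, whereas the matrix header gives software version 3.0.0 and the barcodes have 24 bases. The annotation was not given in the sources used here, and 32235 of 32285 gene identifiers were in GENCODE M21.

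Cells were filtered and gated on the deposited counts as described above, and 24 and 22 droplets that passed the gate failed the filter. The members, gates and gene lists were chosen with earlier results of these data known. For each class the UMIs of its cells were added up per gene, scaled to a class total of 1000000 (CPM) and compared as log2 ratios of Lmo7-/- over Lmo7+/+ for genes with at least 20 UMIs over both libraries, with conditional binomial intervals. A ratio of at least 1 in size was counted as past 2 times. The median log2 ratio and counts stand in for a test of each list, and no p-value was computed. Genes with 0 UMIs in a library were set to a floor of 3 UMIs.

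The text names genes of the lists, Lmo7, the 10 highest and 10 lowest ratios among genes with at least 100 UMIs (mitochondrial and ribosomal protein genes left out), the 10 highest and lowest ratios against macrophages or transitional cells by the smaller of the libraries' values, and the 15 highest Fano factors. Intervals were Clopper-Pearson for shares, Newcombe for their differences and exact Poisson for CPM. Thinning drew 1500 UMIs per cell without replacement.

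No doublet caller was run. Cells with at least 2 UMIs of any of 8 marker lists of other lineages were left out instead, and for the comparison with macrophages this was chosen after seeing the data. Keratin-positive cells without Ptprc, meant as a background class, numbered 6 and 0 and were not used. Every sample column was used (0 left out). Some genes of the lists are counted in them but not reported here by name. The scripts were tested on simulated data. Python 3.11.15, numpy 2.4.6, scipy 1.17.1, pandas 2.3.3, matplotlib 3.10.9 and, for TMM factors, R 4.3.3 with edgeR 4.0.16 were used.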

Additional observations from a re-analysis of the deposited data

How the results depend on the processing

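No paired analysis was possible because each genotype had 1 library and the libraries shared only the replicate number 1. In each alternative the difference in share stayed below 0, and it moved past its counting error only under the strict filter, to -1.13 percentage points. The share of cells in the Lmo7+/+ and Lmo7-/- libraries was 2.75% and 2.23% with the lenient filter, 3.99% and 3.78% at a gate sum of at least 3, 2.06% and 1.60% at 10, 1.499% and 1.24% without Plac8 in the sum, 1.70% and 1.33% with a Ccr2 UMI required, 2.69% and 2.23% at no more than 1 C1q UMI, 2.48% and 1.73% with gates applied after thinning, and 1.79% and 1.53% without other-lineage markers. It was 2.24% in the Lmo7-/- library with the strict filter. Among alternatives chosen after seeing the data it was 2.54% and 2.12% without fibroblast-marker cells and 2.19% and 1.81% with narrower lineage lists. The difference included 0 in its interval at a gate sum of 3, without Plac8 and without other-lineage markers.

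The number of genes at least 2 times higher was 132 without other-lineage markers and 171 with the narrower lists. Higher and lower genes numbered 424 and 472 with each cell weighted alike, 114 and 119 at 50 UMIs or more, 701 and 708 at 5, and 88 and 98 at a log2 ratio of 1.5. Genes higher than in macrophages numbered 344 without other-lineage markers. Ccr2 was seen in 55.3% and 50.5% of members without thinning. The cause was not tested.

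Over the alternatives the median ratio ranged from 0.20 (without fibroblast-marker cells) to 0.65 (without other-lineage markers) for the interferon gamma list and from -1.02 (strict filter) to -0.17 (without Plac8) for the nonclassical list. At a gate sum of 3 the mast cell list and Cpa3 (both 1.14), Mcpt1 (0.10), Mcpt2 (1.58), Mcpt4 (2.34), Tpsb2 (2.07) and Gzma (-0.65) reversed. Without Plac8 the fibroblast list (-1.84), Gas6 (-2.06) and Ccl24 (-0.064) did, and with Ccr2 required the fibroblast list (-2.45) and Gas6 (-2.07). The others were Mgl2 with gates after thinning (-0.60), Pecam1 without other-lineage markers (0.32), the B or plasma cell list without fibroblast-marker cells (-0.15) and the tumor cell list at 5 UMIs (0.037).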
